A study of Mus musculus with 20 samples.

Results

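The comparison described here is the effect of the dnHDAC4/5 vectors on messenger RNA of the extensor digitorum longus (EDL), a fast muscle of the mouse hindlimb, taken within animals. For each of 10 animals and each gene, the log2 signal of the leg with an empty vector was subtracted from that of the leg with the dnHDAC4/5 vectors, and the 10 differences were averaged, with the injection the animal received as a term. All 20 arrays of the series entered, as 10 pairs of legs, and 14596 genes could be tested. The mice were male C57Bl6, 8 weeks old when the vectors were given. Every leg received recombinant adeno-associated virus of serotype 6 (rAAV6) by intramuscular injection of 30 µL, but the dose of the empty vector is not given in the labels, so equal viral loads cannot be assumed. The left leg received the empty vector, and the right leg received vectors expressing HDAC4 and HDAC5 with a point mutation each, which the titles call dominant negative, at 2.5e+10 vector genomes of each. After 4 weeks, 5 animals had an intraperitoneal injection of Scriptaid, a hydroxamate inhibitor of histone deacetylases, and 5 of vehicle (DMSO in phosphate-buffered saline). In the group names of 5 arrays each, the first letter gives the vector (E, empty; H, dnHDAC4/5) and the second the injection (V, vehicle; S, Scriptaid), so that the groups are EV, HV, ES and HS. The titles of the ES arrays say vehicle, but their treatment entries, descriptions and animal identifiers say Scriptaid, and these were followed. The promoter that drives the vectors, the share of fibres they reached, the dose of Scriptaid and the time to collection are not given in the labels, which also name a cross-over of the injections without its order.

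Class IIa histone deacetylases, to which HDAC4 and HDAC5 belong, have little catalytic activity of their own. They bind MEF2 transcription factors and recruit corepressor complexes to their target genes, and kinases active during contraction cause their export from the nucleus. In muscle they are known for roles in the response to denervation and exercise, in fibre type and in glucose use. The design asks which transcripts differ when mutant forms of both are expressed, each animal serving as its own control.

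Per array, the processed intensity had a 75th percentile of 248.4 to 608.1, and 51.7% to 61.3% of the spots exceeded background clearly by the scanner software's test. All levels below are log2 signals relative to that percentile, which is 0 on every array, and all differences are dnHDAC4/5 leg minus empty-vector leg. Spots near the array's edge were dimmer than elsewhere on HS arrays: there, 2.25% to 3.60% lay more than log2 3 under the median of the other arrays, against at most 0.385% on the other 15 arrays, so only interior spots were used. Inside, this share was at most 0.257% on the HS arrays and 0.932% on EV 5. Side of the body, place on the slide and vector cannot be told apart, because the right leg always had the mutant vectors and each group always had the same place. The number of arrays limits the precision, and in whole muscle fewer cells of a type and less RNA per cell cannot be told apart. The labels do not say that the animals were treated independently of each other, so the p-values measure the spread between these animals.

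A small set of transcripts differed between the legs in both directions. limma called 60 genes, or 0.411% of the 14596 tested, at an adjusted p under 0.05. Of these, 36 (0.247%) were higher in the dnHDAC4/5 legs and 24 (0.164%) were lower. The direction was shared by every measured animal for 54 of the 60, which a call on these same paired differences favours. No such count over all genes is given. Called genes differed by a median of log2 0.71 in size, against 0.12 for all genes, a contrast that the call itself favours. A difference of more than 2-fold was reached by 15 of the rises and 2 of the falls. At an unadjusted p under 0.05 there were 2378 genes (16.3%), 1279 higher and 1099 lower. The adjusted p-values lay close together, all but 3 of them at 0.0228 or above, and the number of called genes followed the animals included. Leaving out vehicle animal 5 gave 199 called genes and leaving out Scriptaid animal 3 gave 184. Leaving out vehicle animal 1, 2 or 4 gave 3 each, vehicle animal 3 gave 18, Scriptaid animal 2 gave 11, Scriptaid animal 4 gave 4, and Scriptaid animal 1 or 5 gave 2 each. All 60 genes kept their direction in each of these fits, which the shared direction of 54 of them largely fixes in advance. Only 2, Pla2g5 and the clone A930003A15Rik, were called in every one of these fits. A fit with moderation of the spread that follows the signal and resists outlying genes called 3.

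Among the 32 named called genes, 2 further choices ended most calls. Normexp background correction started from the mean spot signal and local background instead of the processed intensity, and added an offset of 50 to every spot. Such an offset by itself narrows the log2 differences of dim genes, and its share in the changes was not tested. Normexp called 6 of the 32, namely Chrna9, Pla2g5, Igfn1, Ttc9, Scx and Sytl2. It moved 16 of the 32 differences by more than 1.5 times, 11 of them rises, and the values are given below beside those that moved. With the slide as a further term, 4 of the 32 were called, Chrna9, Pla2g5, Sytl2 and Sh3rf2. The others lost it, with limma's adjusted p between 0.0550 and 0.113, among them Igfn1, Ces2c, Gsdma, Scx, Tlr4, Tlr5, Hhatl and Ccdc146. Each slide holds 1 animal of each injection. For genes measured in every animal, such as those just named, this balance by itself keeps the mean difference the same. The unchanged differences are therefore no test of a slide effect on their size.

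The largest named rises were of a nicotinic receptor subunit, a secreted phospholipase, a Z-disc protein, an esterase and a gasdermin. Chrna9, the α9 subunit of nicotinic acetylcholine receptors best known from hair cells of the inner ear, lay between -6.82 and -4.08 in the empty-vector legs (median -6.08) and between -5.38 and 2.24 in the dnHDAC4/5 legs (median -0.23). The paired differences of Chrna9 were 6.24, 7.50, 3.67, 7.45 and 0.74 in vehicle animals 1 to 5 and 6.48, 5.26, 5.69, 7.38 and 5.57 in Scriptaid animals 1 to 5. Vehicle animal 5 stood low, and without its dnHDAC4/5 leg the legs would not overlap. The mean difference was log2 5.60 ± 0.60 (SE, n = 10 animals; limma, adjusted p = 0.0122). Because Chrna9 was above background in 0 of 10 empty-vector legs and in 9 of 10 dnHDAC4/5 legs, only a lower limit can be given: with the processed signal, the transcript was at least 17.3-fold higher. With normexp the difference of Chrna9 was 2.39 (limma, adjusted p = 0.00641). A second Chrna9 probe differed by 4.62. The adjusted p of Chrna9 rose to 0.0532 at most when 1 animal was left out.

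Pla2g5, a secreted phospholipase A2, lay between -3.02 and 0.39 in the empty-vector legs (median -1.64) and between -0.40 and 3.92 in the dnHDAC4/5 legs (median 2.07). Its differences were 1.69, 2.54, 2.79, 4.40 and 1.30 in vehicle animals and 3.93, 4.01, 3.55, 5.28 and 4.08 in Scriptaid animals. The legs overlapped as groups, but in every animal the dnHDAC4/5 leg was higher. The mean of 3.36 ± 0.27 is a 10.2-fold rise and had the smallest adjusted p of all genes (limma, 0.00279). Named genes were chosen by their leg difference, and overlap of the legs was not counted over all genes. Igfn1, a Z-disc protein of immunoglobulin and fibronectin domains, was the only named rise whose legs did not overlap. Its level was -2.58 to -1.62 in empty-vector legs and -0.76 to 2.44 in dnHDAC4/5 legs. The differences were 4.30, 4.32, 1.31, 3.42 and 1.13 in vehicle animals and 1.88, 2.87, 1.96, 4.76 and 3.41 in Scriptaid animals, with a mean of 2.94 ± 0.39 (limma, adjusted p = 0.0292). Igfn1 thus rose 7.66-fold on average, and least in vehicle animals 3 and 5.

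Ces2c, a carboxylesterase that cleaves ester bonds of lipids and drugs, differed by 1.92, 2.13, 1.18, 3.52 and -0.36 in vehicle animals and by 3.11, 3.08, 1.92, 2.99 and 4.31 in Scriptaid animals. The mean was 2.38 ± 0.33 (limma, adjusted p = 0.0294), and vehicle animal 5 alone went the other way. Ces2c lay between -6.26 and -3.50 in empty-vector legs, of which 5 of 10 were above background, and between -3.87 and -0.75 in the others. Gsdma, a pore-forming gasdermin, differed by 4.47, 3.96, 1.35, 2.88 and -0.16 in vehicle animals and by 2.53, 1.70, 1.18, 2.27 and 3.60 in Scriptaid animals. Its level was -4.80 to -2.74 in empty-vector legs and -3.48 to 0.08 in dnHDAC4/5 legs, and the mean difference was 2.38 ± 0.42 (limma, adjusted p = 0.0486). Here too vehicle animal 5 was the only exception. Second probes of Ces2c and Gsdma differed by 1.69 and 2.47. With normexp the differences of Ces2c and Gsdma shrank to 0.66 and 0.97 and neither was called (limma, adjusted p = 0.221 and 0.179).

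**Figure D1:**
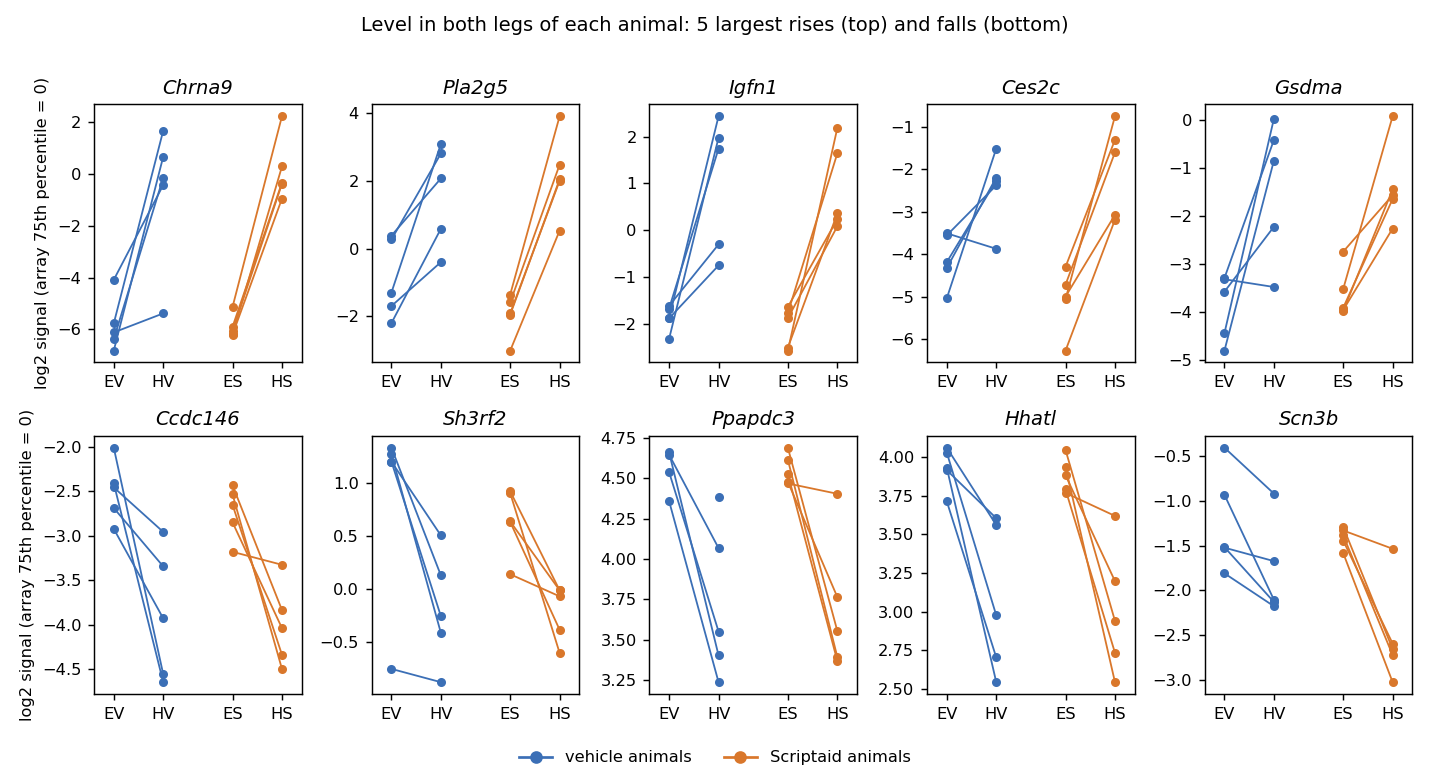
Level of 10 genes in both legs of every animal, as log2 signal relative to the array's 75th percentile, with a line joining the legs of 1 animal (blue, vehicle; orange, Scriptaid) and a scale of its own for each gene. The top panels hold the 5 largest rises and the bottom panels the 5 largest falls by the naming rule; the line of vehicle animal 5 is nearly flat for Chrna9, at 0.74, and Ppapdc3 lacks the EV 5 leg.

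The other rises named by the rule were smaller and spread over several kinds of protein. Ggt6, of the gamma-glutamyltransferase family, rose by 1.80 ± 0.32, and Ttc9, a tetratricopeptide repeat protein, by 1.76 ± 0.31. Vash2, a vasohibin that removes tyrosine from tubulin, rose by 1.59 ± 0.26, and Cd82, a tetraspanin of the cell membrane, by 1.46 ± 0.25. Ggt6 and Vash2 were each above background in 2 of 10 empty-vector legs, and each of Ggt6, Ttc9 and Vash2 rose in 9 of 10 animals. With normexp the differences of Ggt6 and Vash2 were 0.17 and 0.12 and lost the call (limma, adjusted p = 0.581 and 0.694), while that of Ttc9 was smaller by a factor of 1.59 and kept it (limma, adjusted p = 0.0378). Scx, the tendon transcription factor scleraxis, was higher in 10 of 10 animals, by 0.36 to 2.14, with a mean of 1.34 ± 0.17 (limma, adjusted p = 0.0262). Sytl2, which links Rab27 to vesicles, rose by 0.98 ± 0.12 in 10 of 10 (limma, adjusted p = 0.0228). Myc, a transcription factor of growth, rose by 0.81 ± 0.12 (limma, adjusted p = 0.0316), and its 2 other probes differed by 0.68 and 0.65. With normexp Myc stood at 0.51 (limma, adjusted p = 0.126). Besides these, 15 rises with a gene symbol and 5 with a clone or locus name were called, outside the rule. Among them, picked after their values were seen, were Odc1, the entry enzyme of polyamine synthesis (0.68), and Il6st, the shared receptor of interleukin-6-type cytokines (0.56).

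**Figure D2:**
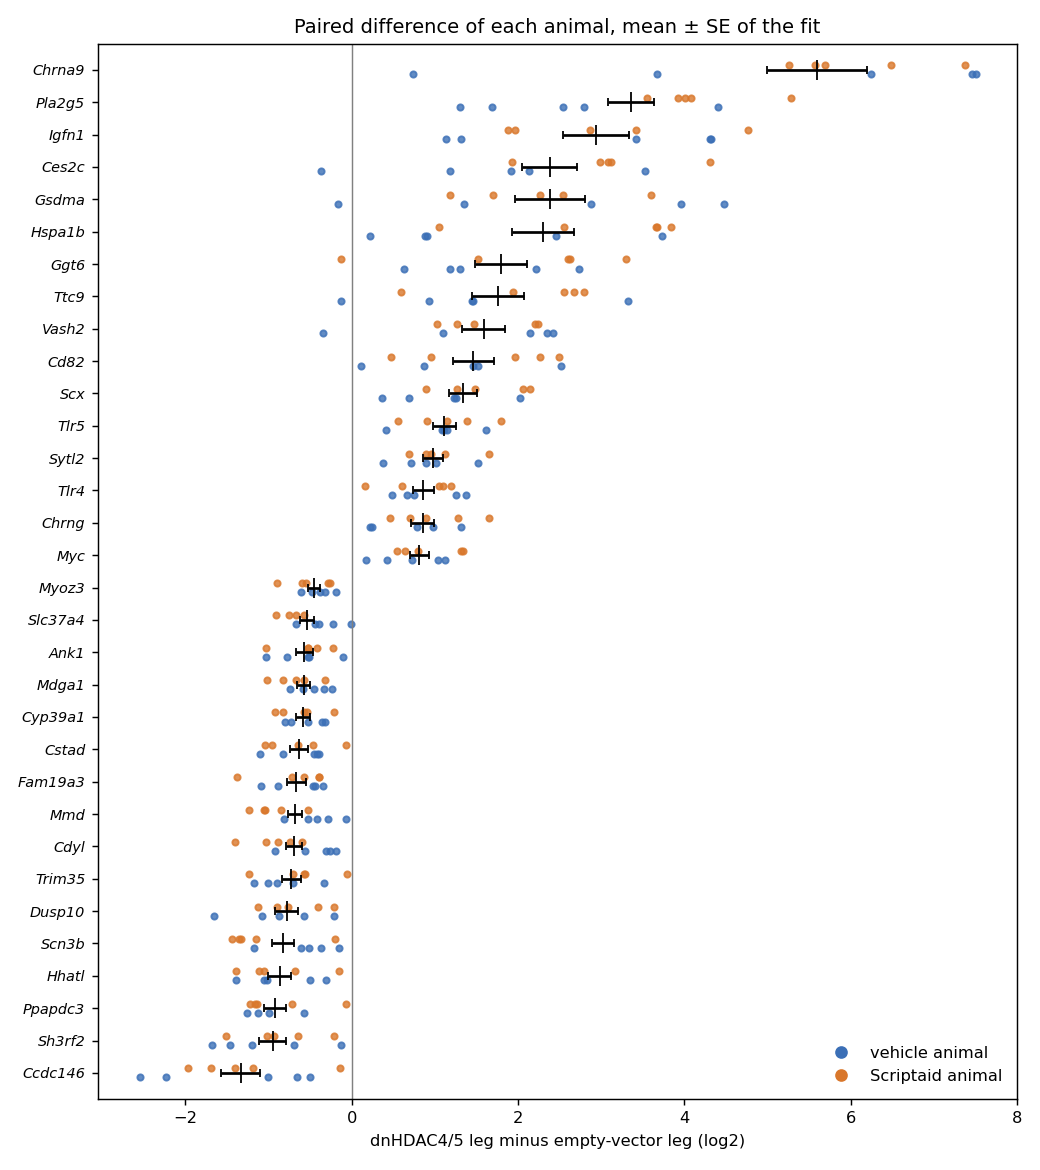
Paired difference of each animal (points; blue, vehicle; orange, Scriptaid) for 16 named rises and 16 named falls, on a log2 axis where 0 means equal legs; the black mark and bar are the mean of the fit and its SE. The rises reach 5.60 for Chrna9 and the falls -1.33 for Ccdc146, and points on the wrong side of 0 occur for 5 of the rises.

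The falls were shallower, and all 16 named falls were lower in every measured animal. The call and the naming rule both favour genes with 1 shared direction, and the size of the falls varied between animals. Ccdc146, a coiled-coil protein of centrioles, lay between -3.18 and -2.01 in empty-vector legs and between -4.65 and -2.96 in dnHDAC4/5 legs. It fell by a mean of 1.33 ± 0.24, a 2.52-fold change (limma, adjusted p = 0.0486), with differences of -1.01, -2.24, -0.66, -2.55 and -0.50 in vehicle animals and -1.19, -1.40, -0.15, -1.69 and -1.97 in Scriptaid animals. Sh3rf2, a ubiquitin ligase with SH3 domains, differed by -1.20, -1.68, -0.13, -1.46 and -0.70 in vehicle animals and by -1.02, -0.93, -0.21, -1.51 and -0.65 in Scriptaid animals, with a mean of -0.95 ± 0.16 (limma, adjusted p = 0.0471). Its empty-vector leg was already low in vehicle animal 3, at -0.75, against 0.14 to 1.33 in the other 9. Ppapdc3, now named Plpp7, is a nuclear envelope protein of muscle. It differed by -0.99, -1.12, -0.58 and -1.26 in vehicle animals 1 to 4 and by -0.71, -1.22, -0.06, -1.16 and -1.14 in Scriptaid animals (mean -0.92 ± 0.13, n = 9; limma, adjusted p = 0.0327). With normexp Ccdc146 stood at -0.69 and was not called (limma, adjusted p = 0.214). The Ppapdc3 spot of EV 5 was marked as non-uniform or outlying and left out.

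Hhatl, a sarcoplasmic reticulum protein that resembles acyltransferases, lay at 3.72 to 4.06 with the empty vector and 2.54 to 3.62 with dnHDAC4/5. It was the only named fall, in a set chosen by leg difference, whose legs did not overlap. Its differences were -1.39, -1.01, -0.50, -1.06 and -0.31 in vehicle animals and -0.69, -1.11, -0.15, -1.06 and -1.40 in Scriptaid animals, with a mean of -0.87 ± 0.14 (limma, adjusted p = 0.0392). Scn3b, a β subunit of voltage-gated sodium channels, differed by -0.37, -0.61, -0.15, -1.17 and -0.51 in vehicle animals and by -1.44, -1.33, -0.20, -1.36 and -1.15 in Scriptaid animals. The mean of Scn3b was -0.83 ± 0.13 (limma, adjusted p = 0.0420). Scriptaid animal 3 had the shallowest fall of Ccdc146, Ppapdc3 and Hhatl.

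Further falls included Dusp10, a phosphatase of stress-activated kinases (-0.78 ± 0.14), Trim35, a ubiquitin ligase (-0.73 ± 0.11), and Cdyl, a chromodomain corepressor (-0.69 ± 0.10). Mmd, a membrane protein of the progestin and adipoQ receptor family, fell by 0.68 ± 0.09. Second probes of Cdyl and Mmd differed by 0.06 and -0.13, so these falls rest on 1 of 2 probes each, while both other probes of Trim35 were lower, by -1.11 and -0.57. Fam19a3, now Tafa3, a secreted chemokine-like protein, fell by 0.67 ± 0.11, Cstad by 0.64 ± 0.11, Cyp39a1, an oxysterol hydroxylase, by 0.58 ± 0.08, and Mdga1, a membrane-anchored adhesion protein, by 0.58 ± 0.08. Ank1, the ankyrin of which a small form lies at the sarcoplasmic reticulum, fell by 0.57 ± 0.10, and Slc37a4, the glucose phosphate transporter of the endoplasmic reticulum, by 0.54 ± 0.08 in 9 measured animals. With normexp Mmd, Mdga1, Ank1 and Slc37a4 stood at -0.44, -0.38, -0.35 and -0.34, none of them called. The remaining 3 called falls with a symbol were Cdc42ep2, Ccrn4l and Capn3, and 5 more had clone or accession names. Capn3, the muscle calpain, fell by 0.52 and is named here after its value was seen, with a second probe at -0.11. Of 16 other probes of 14 called genes, 14 had the same direction.

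MEF2 factors are the known partners through which class IIa deacetylases reach muscle promoters. The 250 bases before the start of each gene in RefSeq (GRCm38.p6) were therefore searched on both strands for the MEF2 motif. The E-box, which myogenic factors bind, was searched as well. The muscle E-box was CAGCTG or CACCTG, and MEF2 stands for its consensus of 10 bases. Of the 36 called rises, 25 were found in the table, and 12 of them held a muscle E-box and 1 a MEF2 match. Of the 24 called falls, 12 were found, with a muscle E-box in 9 and a MEF2 match in 2, Capn3 and Cstad. Among all 27025 symbols of the table the shares were 30.6% for the E-box and 3.42% for MEF2, and some symbols have several windows. The counts are descriptions of letters in these windows, and no test was made. The windows of 3 rises with E-boxes, among them both called receptor subunits, and of both falls with a MEF2 match are shown, 5′ to 3′ on the gene's strand. Capitals mark the E-box in the first 3 and the MEF2 match in the other two, whose windows also hold 1 E-box each, left in small letters.
Chrna9 promoter, chr5:65966874-65967123, plus strand: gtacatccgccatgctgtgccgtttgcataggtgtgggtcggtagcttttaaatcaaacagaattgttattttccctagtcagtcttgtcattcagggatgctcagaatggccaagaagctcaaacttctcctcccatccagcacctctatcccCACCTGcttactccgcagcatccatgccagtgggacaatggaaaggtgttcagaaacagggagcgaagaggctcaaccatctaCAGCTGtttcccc
Chrng promoter, chr1:87205561-87205810, plus strand: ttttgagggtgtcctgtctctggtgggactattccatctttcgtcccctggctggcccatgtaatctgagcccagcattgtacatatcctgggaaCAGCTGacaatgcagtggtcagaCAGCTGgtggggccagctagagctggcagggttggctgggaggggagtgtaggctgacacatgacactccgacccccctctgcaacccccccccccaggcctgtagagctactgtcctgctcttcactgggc
Pla2g5 promoter, chr4:138819258-138819507, minus strand: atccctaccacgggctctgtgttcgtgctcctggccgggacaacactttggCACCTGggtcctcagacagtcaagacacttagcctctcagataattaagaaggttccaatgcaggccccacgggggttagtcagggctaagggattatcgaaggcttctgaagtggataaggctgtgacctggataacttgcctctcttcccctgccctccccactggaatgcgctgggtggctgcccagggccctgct
Capn3 promoter, chr2:120463343-120463592, plus strand: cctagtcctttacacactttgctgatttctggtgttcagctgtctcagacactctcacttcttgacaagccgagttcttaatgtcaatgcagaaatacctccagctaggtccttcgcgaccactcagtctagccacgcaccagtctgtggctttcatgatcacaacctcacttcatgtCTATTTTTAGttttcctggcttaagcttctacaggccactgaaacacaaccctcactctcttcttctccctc
Cstad promoter, chr2:30594794-30595043, plus strand: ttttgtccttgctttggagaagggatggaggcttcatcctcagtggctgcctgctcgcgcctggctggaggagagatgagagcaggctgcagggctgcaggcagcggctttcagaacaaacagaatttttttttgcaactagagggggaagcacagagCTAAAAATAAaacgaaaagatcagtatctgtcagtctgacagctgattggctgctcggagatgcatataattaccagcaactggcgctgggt
In the Chrna9 window the E-boxes begin 96 and 13 bases before the start, and in the Chrng window 155 and 132 bases before it. The E-box of Pla2g5 begins 199 bases before its start. The MEF2 matches begin 72 bases before the start of Capn3 and 92 before that of Cstad. None overlaps another motif that was searched. Pla2g5 and Capn3 each have another window without these matches.

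Gene lists of pathways and cell types are given by the direction of their measured members and their median difference. Over all genes, 53.9% were higher in the dnHDAC4/5 legs, the median difference was 0.02, and 16.3% had an unadjusted p under 0.05. A list's count is to be read against these shares. The sign of the median held under every alternative computed for it, and with each animal left out, for 19 of the 39 lists. These include the heat shock, atrophy, endoplasmic reticulum stress, p53, Toll-like receptor, antigen presentation, carboxylesterase, calcium handling and slow-fibre lists and the markers of adipocytes, macrophages, fibroblasts, Schwann and satellite cells.

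Among nicotinic receptor subunits, which form the acetylcholine receptor of the neuromuscular junction and its relatives, 5 of 7 measured members were higher (median 0.31, but -0.19 with normexp background correction) and 2 were called, Chrna9 and Chrng. Chrng encodes the γ subunit of the foetal muscle receptor, which is known to return after denervation. It lay between -4.46 and -3.44 in empty-vector legs and between -4.10 and -2.14 in dnHDAC4/5 legs, and rose by 0.85 ± 0.14 in 10 of 10 animals (limma, adjusted p = 0.0432). The second Chrng probe differed by -1.20, the opposite direction, and the mean of both probes was -0.18, so the rise of Chrng holds for 1 probe only. With normexp that probe stood at -0.00245 and was not called. Chrna1, the α subunit of the muscle receptor, differed by 0.86 ± 0.26 (limma, adjusted p = 0.142), and Chrne, the adult subunit that takes the place of Chrng, by -0.41 ± 0.21 (limma, adjusted p = 0.369). Second probes of Chrna1 and Chrne differed by 0.66 and -0.17. Of 14 genes of the neuromuscular junction and denervation response, 9 were higher (median 0.19, and -0.04 with normexp background correction) and 0 passed, with 5 at an unadjusted p under 0.05. Musk, the kinase that clusters receptors, was higher by 0.98 ± 0.22 in 9 of 10 animals (limma, adjusted p = 0.0713), and Rapsn, its scaffold partner, by 0.24 ± 0.06 (limma, adjusted p = 0.0798). Myog, the denervation factor between class IIa deacetylases and receptor genes, stood at -0.31 ± 0.12 (limma, adjusted p = 0.235), and Ache, the esterase of the synapse, at -0.60 ± 0.20 (limma, adjusted p = 0.172).

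Most heat shock and atrophy genes were higher in the dnHDAC4/5 legs, though few passed the test. Of 16 heat shock proteins and co-chaperones 14 were higher (median 0.23), the list median was above 0 in 9 of 10 animals, and 8 members had an unadjusted p under 0.05, all higher, but only Hspa1b passed. Hspa1b, an inducible chaperone of the Hsp70 family, lay between -5.91 and -2.29 in empty-vector legs and between -5.03 and 0.17 in the others. It rose by 2.30 ± 0.37 in 10 of 10 animals (limma, adjusted p = 0.0420), from 0.22 in vehicle animal 1 to 3.84 in Scriptaid animal 5. With normexp it stood at 0.94 (limma, adjusted p = 0.104). Its near-identical copy Hspa1a differed by 2.26 ± 0.41 (limma, adjusted p = 0.0508), and probes may not tell the copies apart. Dnajb1, a co-chaperone of that family, was higher by 0.45 ± 0.10 (limma, adjusted p = 0.0640). All 14 measured genes of atrophy and autophagy were higher (median 0.27), 7 at an unadjusted p under 0.05 and 0 called. The widest were Gadd45a, a stress gene of denervated muscle (1.16 ± 0.24, 10 of 10 animals), the metallothioneins Mt2 (1.00 ± 0.24) and Mt1 (0.81 ± 0.17), and Eif4ebp1, an inhibitor of translation (0.71 ± 0.13, 8 animals), with limma's adjusted p-values between 0.0599 and 0.0901. The ubiquitin ligases Fbxo32 and Trim63 stood at 0.50 ± 0.14 (7 animals) and 0.26 ± 0.12 and did not pass. Second probes of Fbxo32 and Eif4ebp1 differed by 0.76 and 0.32. Of 12 genes of endoplasmic reticulum stress 9 were higher and 0 called, with Manf at 0.47 ± 0.11 (limma, adjusted p = 0.0707), and of 16 p53 targets 9 were higher and 0 called. Among 14 immediate early genes and Myc, 12 were higher and only Myc passed.

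Of 11 Toll-like receptors and their adaptors, the sensors of microbial molecules, 9 were higher (median 0.26, and 0.09 with normexp), the list median was above 0 in 10 of 10 animals and 2 were called. Tlr5, the flagellin receptor, rose by 1.12 ± 0.13 (limma, adjusted p = 0.0228), between 0.41 and 1.79 in the single animals. Tlr4, the endotoxin receptor, rose by 0.86 ± 0.12 (limma, adjusted p = 0.0316), between 0.16 and 1.38. With normexp neither was called, Tlr5 standing at 0.17 and Tlr4 at 0.52 (limma, adjusted p = 0.516 and 0.151). Macrophages carry these receptors too. All 13 measured macrophage markers had a positive mean difference (median 0.31, 0 called), but the marker list's median ran from -0.49 in Scriptaid animal 4 to 1.65 in Scriptaid animal 2 and was above 0 in 6 of 10 animals. In Scriptaid animal 2, where the macrophage median was highest, the Toll-like list median (0.87), Tlr5 (1.79) and Tlr7 (2.81) were highest too. In Scriptaid animal 4, where it was lowest, Tlr5 stood at 1.15, Tlr7 at 0.20 and the Toll-like median at 0.31. Tlr4 had another order: it was highest in vehicle animal 4 (1.38), and stood at 1.20 in Scriptaid animal 2 and 1.05 in Scriptaid animal 4. Cd14 is a member of both lists, so their medians are not separate measures. In vehicle animal 5, with a macrophage median of -0.12, the Toll-like median was lowest (0.05). Without Scriptaid animal 2 the macrophage median was 0.10. The part of macrophages in these differences was not tested. Macrophage markers were also summed on the linear scale, for the 11 with a value on all 20 arrays. The sums lay between 5.97 and 15.4 in EV, 8.39 and 16.2 in HV, 6.90 and 16.2 in ES, and 6.22 and 23.5 in HS. Interferon response genes (14 of 20 higher, median 0.04) and antigen presentation genes (11 of 13 higher, median 0.13) had 0 called and 0 with an unadjusted p under 0.05.

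Members of the calcium handling list were mostly lower. Of 15 measured members of the triad and sarcoplasmic reticulum, 11 were lower (median -0.25, and -0.06 with normexp), 6 of them at an unadjusted p under 0.05, and the list median was above 0 in 1 of 10 animals, Scriptaid animal 3. Hhatl was the only member called. Jph2 and Jph1, the junctophilins that hold the triad together, stood at -0.55 ± 0.10 (limma, adjusted p = 0.0508) and -0.46 ± 0.12 (limma, adjusted p = 0.0907). Cacnb1, the β subunit of the muscle calcium channel, stood at -0.40 ± 0.08 (limma, adjusted p = 0.0578) and Asph at -0.37 ± 0.10 (limma, adjusted p = 0.0933). Jph2, Cacnb1 and Asph were lower in 10 of 10 animals. The channels and pumps themselves were closer to 0: Cacna1s at 0.00 ± 0.10, Ryr1 at -0.21 ± 0.09 (8 animals) and Atp2a1 at 0.19 ± 0.12 (9 animals), none of them called.

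Of 14 Z-disc genes 8 were higher, with 1 called in each direction. Igfn1 rose, as above, and Myoz3, a calcineurin-binding protein of fast Z-discs, fell by 0.46 ± 0.08 in 10 of 10 animals (limma, adjusted p = 0.0458). Ky, a partner of Igfn1 in the Z-disc, stood at -0.27 ± 0.09 (limma, adjusted p = 0.181). All 3 measured carboxylesterases were higher, and Ces2b, the neighbour of Ces2c in sequence, differed by 1.89 ± 0.38 (limma, adjusted p = 0.0599). Of 10 phospholipases A2 only Pla2g5 was called, 5 were higher and the list median was -0.02. Glycogen genes went both ways, with 5 of 13 higher and 0 called. Stbd1, which tethers glycogen to membranes, stood at 1.36 ± 0.24 in 8 measured animals (limma, adjusted p = 0.0586), while Ppp1r3c, which targets a phosphatase to glycogen, stood at -0.71 ± 0.14 (limma, adjusted p = 0.0578).

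The genes closest to the vectors differed little. Hdac4 lay between 0.40 and 1.31 in empty-vector legs and between 0.50 and 1.94 in dnHDAC4/5 legs, with a mean difference of 0.33 ± 0.17 over 9 animals (limma, adjusted p = 0.381). Hdac5 differed by -0.03 ± 0.12 over 7 animals (limma, adjusted p = 0.940). The vector sequences are not given, so these probes may not see the transgenes and check nothing about them. Of 8 class IIa deacetylases and MEF2 factors 5 were higher and 0 called, with Mef2a at 0.38 ± 0.09 (limma, adjusted p = 0.0800) and Hdac9 at -0.46 ± 0.15 (limma, adjusted p = 0.158). Of 14 known muscle targets of these proteins, 8 were higher and 0 called, and the median was 0.03. Among them Ppargc1a, the regulator of mitochondria, stood at 0.08 ± 0.11, Slc2a4, the insulin-responsive glucose transporter, at -0.10 ± 0.08, and Ckm, muscle creatine kinase, at 0.23 ± 0.12 (8 animals). Of 10 other deacetylases and corepressors only Cdyl was called.

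Lists of fibre type and metabolism held no called gene. All 11 measured fast-fibre genes had a positive mean (median 0.12, and -0.01 with quantile normalization) and 3 of 9 slow-fibre genes did (median -0.18), with 0 members of either at an unadjusted p under 0.05. The slow-fibre median ran from -2.01 in vehicle animal 1 to 1.29 in Scriptaid animal 2. Glycolysis had 7 of 11 higher (median 0.10, but -0.17 with the authors' matrix), fatty acid uptake and oxidation 8 of 15 (0.03, but -0.03 without vehicle animal 1), oxidative phosphorylation 6 of 9 (0.13, and -0.01 without that animal), and circadian clock genes 7 of 11 (0.04). Embryonic myosin and regeneration genes had 4 of 12 higher (median -0.12, and 0.01 with normexp), glucocorticoid targets 8 of 12 (0.08), collagens and matrix 15 of 19 (0.10), and cell cycle genes 10 of 13 (0.07). Without Scriptaid animal 2 the collagen and cell cycle medians were -0.02 and -0.20. The cell cycle median reached 3.57 in Scriptaid animal 2 and -1.44 in vehicle animal 1. The same 2 animals stood apart for blood cell markers, with a red blood cell median of 2.72 and -3.05, Slc4a1, the anion exchanger of red cells, at 6.04 and -6.53, and S100a9, a calcium-binding protein of neutrophils, at 7.03 and -7.23. Their part in the cell cycle values was not tested.

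**Figure D3:**
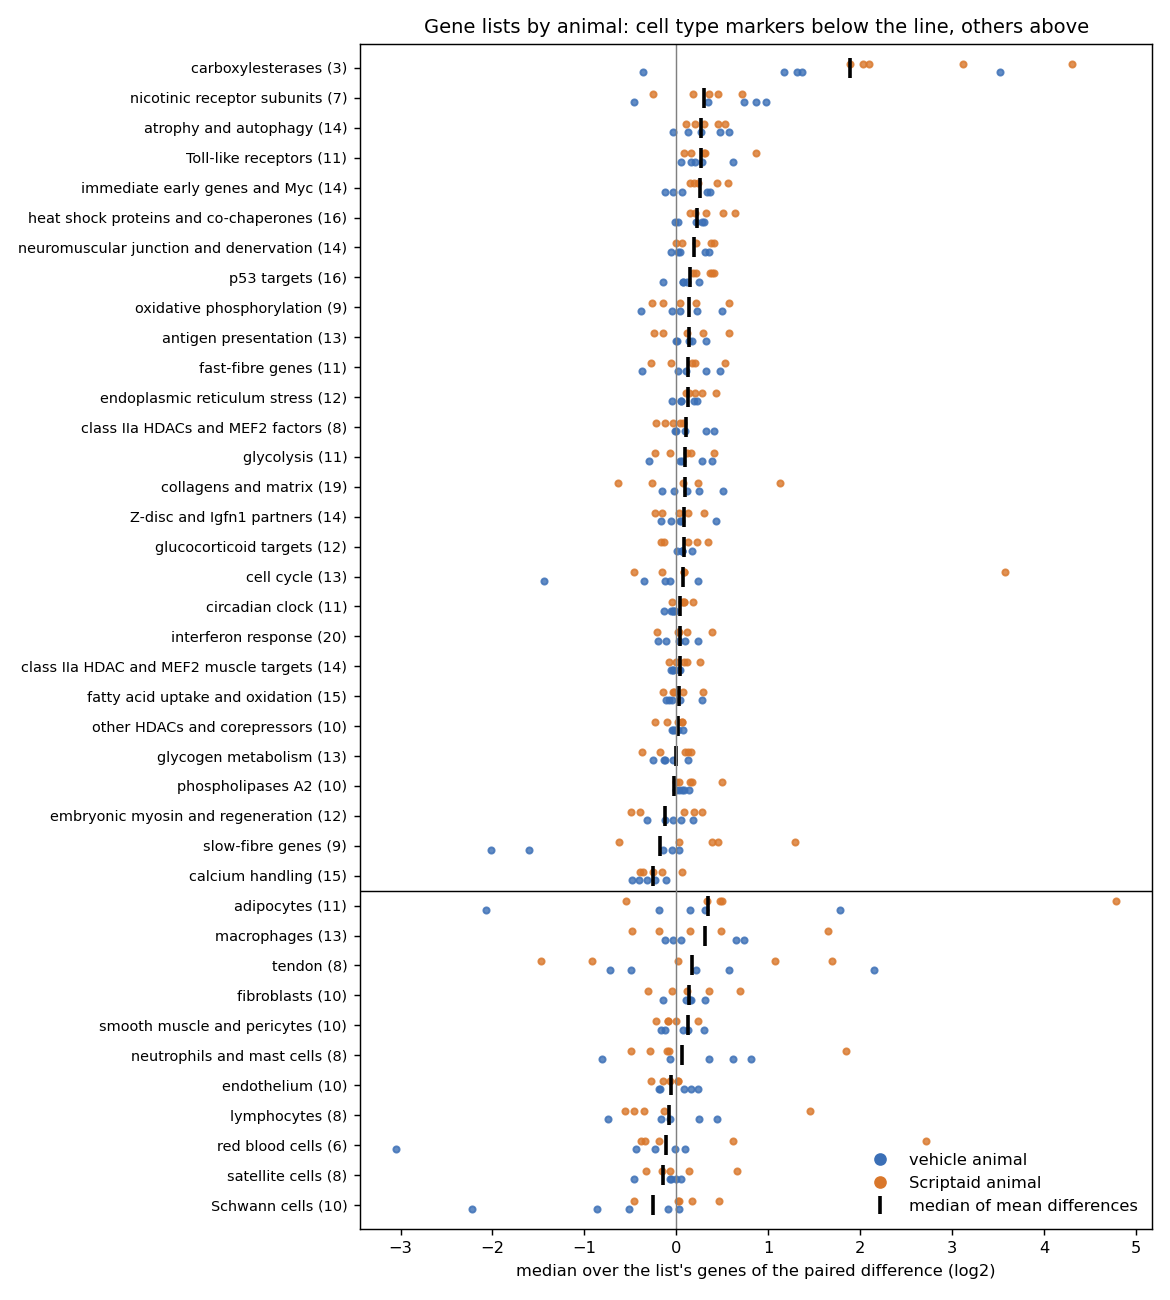
Median paired difference of each gene list in every animal (points; blue, vehicle; orange, Scriptaid), with the median of the members' mean differences as a black mark; the number of measured members follows each name, and cell type markers stand below the line. The calcium handling points lie below 0 in 9 of 10 animals and the Toll-like receptor points above 0 in 10 of 10, while the marker lists scatter widely, from -3.05 to 4.79.

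Markers of other cells in the sample varied between the legs of single animals more than they did on average. Of 11 adipocyte markers 11 had a positive mean (median 0.34, 0 called), and the list's median ran from -2.07 in vehicle animal 1 to 4.79 in Scriptaid animal 5. Adipoq, the fat hormone adiponectin, differed by -5.23 in vehicle animal 1 and by 6.08 in Scriptaid animal 5. The summed level of adipocyte markers was 88.7 to 170 in EV, 96.8 to 147 in HV, 75.4 to 195 in ES and 113 to 271 in HS. This sum and those below cover only markers with a value on all 20 arrays, 9 for adipocytes, 9 for Schwann cells and 6 for tendon. Schwann cell markers were higher for 3 of 10 (median -0.25, from -2.22 in vehicle animal 1 to 0.46), with sums of 4.55 to 19.0 in EV, 3.29 to 7.65 in HV, 4.35 to 8.31 in ES and 4.74 to 12.0 in HS. Tendon markers were higher for 5 of 8 (median 0.17), and their list median ran from -1.48 in Scriptaid animal 5 to 2.15 in vehicle animal 5. Scx belongs to that list and rose by 2.06 in Scriptaid animal 5 and by 0.36 in vehicle animal 5, the opposite order. Tendon sums were 10.2 to 45.6 in EV, 24.7 to 57.5 in HV, 6.20 to 16.0 in ES and 11.3 to 47.9 in HS. Fibroblast markers were higher for 9 of 10 (median 0.14), smooth muscle and pericyte markers for 6 of 10 (0.13), and neutrophil and mast cell markers for 5 of 8 (0.06, and -0.28 without Scriptaid animal 2). Endothelial markers were higher for 2 of 10 (median -0.06), lymphocyte markers for 3 of 8 (-0.08), red blood cell markers for 1 of 6 (-0.11, but 0.18 without vehicle animal 1) and satellite cell markers for 3 of 8 (-0.14). Scx was the only called gene of the marker lists. Of the defining markers Sox10, Adrb3, Cd8a, Cd79a and Prf1 were above background on 0 of 20 arrays. The part of these other cells in the called differences was not tested either.

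Taking the difference within animals narrowed the error of most genes. The deviations of an animal's legs from their group means correlated across genes with r of 0.02 (vehicle animal 1) to 0.43 (median 0.29). Between legs of different animals with the same injection the median was -0.09. Deviations from a group mean cancel out within the group, which by itself pushes the values between different animals negative. That median is therefore no independent baseline for the pairs. Legs of different animals on the same slide had a median of 0.17, and a leg and its pair always share the slide. The median standard error was 0.107 in the paired fit and 0.139 in a fit of the 20 arrays without pairing. It was smaller with pairing for 88.6% of genes and 56 of the 60 called. The 60 were called by the paired fit, which itself favours genes with a small error there. Without pairing limma called 34 genes, of which 23 were among the 60. For Sytl2 the SE was 0.12 with pairing and 0.35 without, and the adjusted p of limma was 0.0228 and 0.270. For Hspa1b the adjusted p was 0.0420 and 0.0963, and for Tlr4 0.0316 and 0.0572. For Igfn1 pairing brought no gain, with an SE of 0.39 and 0.38. With the slide as a further term, 8 genes were called, 7 of them among the 60.

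The single animals differed in how strongly they showed the called genes. The median difference of the called rises ran from 0.37 in vehicle animal 5 to 1.31 in vehicle animal 4, and that of the called falls from -0.26 in Scriptaid animal 3 to -1.08 in Scriptaid animal 2. In vehicle animal 5, 55 of 59 measured called genes had the common direction, and in each of the other 9 animals at most 1 departed from it. These values describe genes called on the same animals. Over all genes the SD of the difference was smallest in vehicle animal 3 (0.478) and largest in Scriptaid animal 2 (0.770).

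The injection term asks whether the vector effect differed between Scriptaid and vehicle animals. limma called 0 genes for it (0% of 14596; smallest adjusted p = 0.875), and 714 (4.89%) had an unadjusted p under 0.05. With the spots of the edge zone, where HS arrays read low, it called 19. With normexp it called 0, but 2137 genes then had an unadjusted p under 0.05 (limma, smallest adjusted p = 0.328). Without Scriptaid animal 2 it also called 0, with 911 genes at an unadjusted p under 0.05 (limma, smallest adjusted p = 0.0849). In the main fit the genes of smallest p were Nr1i3, Clec3b, N4bp2l1, Il17re and Zmpste24, none of which passed, at an adjusted p of 0.875 each. Clec3b, a plasminogen-binding lectin, differed by -0.20, -0.04, -0.01, -0.44 and 0.25 in vehicle animals and by 0.81, 1.34, 0.84, 1.52 and 0.65 in Scriptaid animals, which is the contrast it was chosen by. Mean differences in the vehicle and in the Scriptaid animals, which share no array but share slides, had the same sign for 60.7% of genes and correlated across genes with r = 0.26. All 60 called genes had the same sign under both injections, a result to which their choice on the joint mean contributes. Of the called genes 8 had an unadjusted p under 0.05 for the injection term and none passed. Pla2g5 differed by 4.17 ± 0.65 (SD, n = 5) in Scriptaid animals and 2.55 ± 1.20 (SD, n = 5) in vehicle animals, and limma's adjusted p for that difference was 0.907. Chrna9 differed by 6.07 ± 0.85 and 5.12 ± 2.90 (SD, n = 5 each), but no empty-vector leg was above background for it, so these sizes are uncertain.

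**Figure D4:**
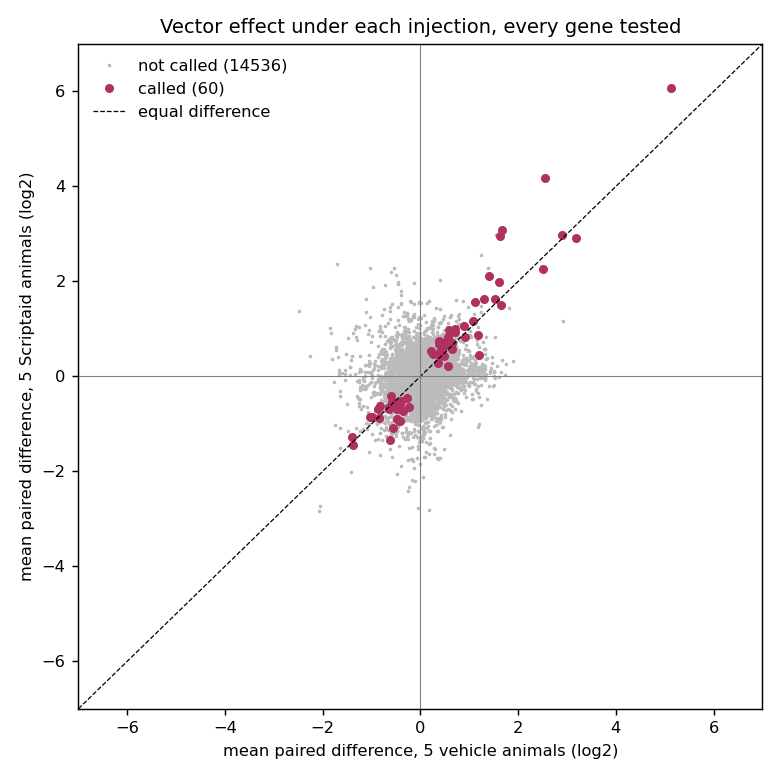
Mean paired difference of every gene in the 5 vehicle animals (horizontal, log2) against that in the 5 Scriptaid animals (vertical, log2), with the 60 called genes in red and a dashed line for equal differences. The called genes lie at lower left and upper right, as far out as Chrna9 at 5.12 and 6.07, whereas the other genes scatter around 0 with r = 0.26 over all genes. No empty-vector leg was above background for Chrna9, so its exact place is uncertain.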

How the data were processed

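EDL RNA from both legs of 10 mice was measured on 20 one-colour Agilent arrays. Per the file headers, Feature Extraction 9.5.1.1 corrected each spot for background and a spatial trend; the resulting processed intensity was deposited. The deposited series matrix gives a ratio for 23678 probes, equal in the files to that intensity over 1 constant per array, and served as an alternative. Marks for outlying, saturated and above-background spots are other values of the deposited files.

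From log2 intensity, the 75th percentile over spots that are not controls was subtracted per array. Of 43379 such spots, the 38182 inside the array (columns 1 to 77, rows 11 to 522) were kept, less 12539 marked as outlying over all arrays and zones. Spots of a probe were averaged. A probe needed a signal well above background on 5 arrays and both legs in 3 animals of each injection, which 21097 probes met. A gene was read from its probe of highest mean. The difference of the legs was paired by the animal identifiers, and limma 3.58.1 in R 4.3.3 fitted mean and injection, coded so that both injections weigh equally, two-sided, with Benjamini-Hochberg adjustment over 14596 genes; every adjusted p is from this tool. Of these genes, 1746 lacked at least 1 animal. The scripts were tested on simulated data.

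Named were the 15 largest called rises and falls with a symbol that moved one way in all animals but at most 1, called members of the lists, up to 4 leading members of each list described, Hdac4 and Hdac5, and the 5 genes of smallest p for the injection term. The 39 lists hold 600 symbols, 448 of them measured. Members, lists and rules were chosen with earlier results of these data known. Gene names are those of the files; 11450 of the genes' accessions matched the RefSeq genes of GRCm38.p6, and 1096 had another current symbol. No positions of probes are given, since the files state no build. A gene that the naming rule picked is not reported here, though counts and medians include it.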

Additional observations from a re-analysis of the deposited data

Results flagged for a closer look

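In each set of 10 animals, the highest and the lowest value were checked for a gap to the next one that is wide against the whole range (Dixon's criterion), for 34 genes and 39 list medians. Chance marks about 1 in 20 such sets, and 5 of these were marked. Vash2 differed by -0.34 in vehicle animal 5, whereas it was higher by 1.02 to 2.42 in the other 9. The median of the phospholipases A2 was 0.50 in Scriptaid animal 2, that of the cell cycle genes 3.57 and that of the satellite cell markers 0.66, each the highest by a wide gap. The median of the Schwann cell markers was -2.22 in vehicle animal 1, the lowest by a wide gap. The cause of none of these was tested.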

How the results depend on the processing

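The number of called genes, 60, depended on the processing more than the directions did, though a call on the same animals favours kept directions. It was 268 with edge spots included (127 higher, 141 lower; the injection term then had 19), 98 after quantile normalization (49 each way), 124 with low spots of a group left out, 157 with the authors' series matrix and 168 without the injection term. It was 8 with normexp background correction (8 higher, 0 lower), 3 without a filter on dim probes, 39 with outlying spots kept, 31 with the mean over all probes, 8 with the slide as a block and 3 with trended and robust moderation. Without the replicate block, that is without pairing by animal, it was 34, and with the animal as a random block 506. Leaving out 1 animal gave 2 to 199. The 60 genes kept their direction wherever they were measured, except for 3 under normexp and 1 under the mean of probes. The cause of these changes was not tested. Chrng reversed to -0.00245 and -0.18 there. With the slide as a block, the balance of injections over slides fixes the direction in advance for genes measured in every animal. A narrower interior (52), median scaling (59) and a stricter background filter (79) stayed within 1.5 times. Of 39 list medians 19 kept their sign in every setting. Dim genes, such as Chrna9 with the empty vector, are limited by background.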
